A study of Ursus arctos with 12 samples.

Results

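Potassium channel genes were examined in the vastus lateralis, a thigh muscle, of brown bears (Ursus arctos). The genes were chosen by name: every gene whose symbol starts with KCN and that held at least 30 reads summed over the 12 libraries was taken. Of 91 such symbols in the count table of 30249 genes, 53 met the minimum. The other 38 held fewer reads and were left out; KCNA4 and KCNH4, with 34 reads each, lay just inside the limit, and KCNJ4, KCNK5 and KCNS2, with 29 reads each, just outside it.

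The study sequenced muscle mRNA of 6 free-ranging bears aged 2 to 3 years, each captured in winter during hibernation and again in summer during the active period, to ask how the muscle transcriptome differs between the seasons. Every bear gave a winter and a summer library, so that there were 6 libraries per season. Animals of both seasons were wild, were anaesthetised for the biopsy and received no other treatment that the sources used here name. RNA came from whole biopsies, so that each library holds RNA of muscle fibres together with that of vessels, connective tissue and nerve. In such bulk samples, fewer cells of a type and less RNA per cell cannot be told apart.

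Potassium channels let potassium leave or enter a cell along its gradient, which repolarises the membrane after an action potential and holds the resting potential. Voltage-gated channels open on depolarisation, inward rectifiers stabilise the resting potential, tandem pore channels carry leak current, and calcium-activated and sodium-activated channels open when those ions rise inside the cell. Silent voltage-gated subunits form no channel alone and join others, and accessory subunits change how a pore opens or reaches the surface. In skeletal muscle, potassium that leaves the fibres during activity accumulates in the transverse tubules, and channels gated by ATP link the membrane to the energy state of the fibre.

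Depth ran from 16742406 to 32140160 reads per library. Skeletal muscle fibre markers were abundant in all libraries, with a summed level of 6 genes between 92386 and 174615 CPM (reads scaled to the library size), and those of other cell types were present too. The winter library of bear 1509 stood apart from the other winter libraries on the second principal component, and results that rest on it are given with and without that bear. Levels below are CPM scaled by edgeR's TMM factors. They describe each gene across libraries and are not ranked between genes, since no transcript lengths were used here. The seasons were compared in edgeR with its quasi-likelihood test and the bear as a block, over the 17290 genes with at least 30 reads. Adjusted p values are those of Benjamini and Hochberg from this fit unless another is named, and SE is the standard error of a log2 fold change. A gene was called at an adjusted p below 0.05.

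Of the 53 potassium channel genes, 19 passed the test, 8 with a higher and 11 with a lower winter level. That is 35.8% of them, where 40.8% of all genes tested were called, 19.6% higher and 21.2% lower. The share thus lay near that of genes at large. At an adjusted p below 0.01 with a fold above 1.3 or below 0.77, 3 were higher and 10 lower, 13 of 53 beside 25.7% of all genes (12.2% higher and 13.4% lower). Scaling by library totals in place of TMM gave 4 higher and 14 lower beside 39.2% of all genes (15.6% and 23.6%). The fit without the bear gave 6 higher and 10 lower beside 39.5% (19.6% and 19.9%). The median log2 fold change over the 53 genes was −0.34, with 34 genes below 0, against −0.01 over all genes, of which 8708 of 17290 lay below 0. The median was −0.08 over the 15 genes with a mean of at least 100 reads per library and −0.37 over the 38 with fewer. Among those 15 genes, 9 were called (46.5% of all genes so covered), and among the 38, 10 (33.4% of all such genes). All 6 bears moved in the same direction for 19 of the 53 genes, 6 upward and 13 downward, and for 37.4% of all genes (18.4% and 19.0%). The seasons did not overlap in 6 genes, 2 higher in winter, such as KCNIP2, and 4 lower in winter (KCNA5, KCNA7, KCNJ8 and KCNK6), while 17.3% of all genes had seasons that did not overlap (9.12% higher and 8.21% lower).

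**Figure D1:**
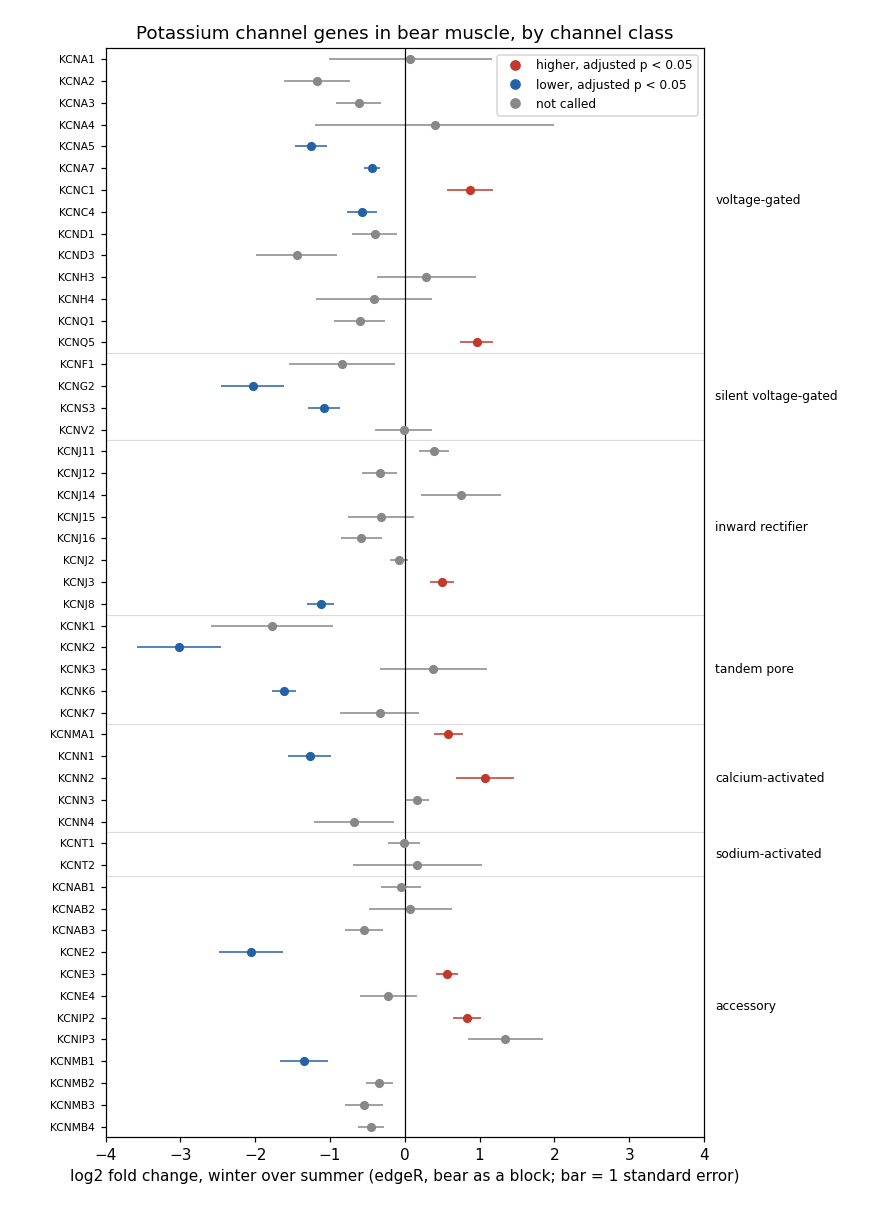
Log2 fold change, winter over summer, of 50 potassium channel genes (points) with bars of 1 SE, grouped by channel class; red points are genes called higher (7 of those drawn), blue points the 11 called lower, and grey points were not called. KCNK2 lies farthest to the left at −3.02, and called genes of both directions occur among the voltage-gated, inward rectifier, calcium-activated and accessory genes.

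Voltage-gated pore genes numbered 17, of which 3 were called higher, among them KCNQ5 and KCNC1, and 3 lower (KCNA5, KCNA7 and KCNC4). KCNQ5, a channel of the M-current family that opens near the resting potential, was at 11.9, 25.3 and 37.1 CPM in summer (lowest, median and highest bear) and at 32.8, 50.3 and 70.1 CPM in winter. The seasons overlapped only in that the lowest winter library lay below the highest summer libraries, and all 6 bears rose. The log2 fold change was 0.96 ± 0.22 (SE, adjusted p = 0.00511). KCNQ1, a relative known from heart, was at a median of 0.568 CPM in summer and 0.301 CPM in winter and was not called.

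The KCNC genes encode fast Kv3 channels that shorten the action potential. KCNC1 was at 1.10, 1.66 and 3.28 CPM in summer and 1.93, 3.48 and 4.80 CPM in winter, a log2 fold change of 0.87 ± 0.31 (SE, adjusted p = 0.043) with 5 of 6 bears higher. The seasons overlapped, and the call was lost without bear 1316, 1317, 1509 or 1512 (adjusted p = 0.0731, 0.124, 0.0934 and 0.0905) and under library totals (0.0525), a range of 0.0214 to 0.124 over the alternatives. KCNC4, which forms a muscle channel together with the accessory subunit KCNE3, went the other way. It was at 10.2, 24.4 and 36.6 CPM in summer and 10.1, 15.5 and 27.2 CPM in winter, and its log2 fold change was −0.57 ± 0.20 (SE, adjusted p = 0.0378). The seasons overlapped widely, 5 of 6 bears fell, and bear 1305 went from 10.2 to 14.0 CPM. This call too was lost without bear 1316, 1317, 1509, 1511 or 1512 (adjusted p = 0.0532, 0.114, 0.094, 0.0648 and 0.103) and without the block (0.115), a range of 0.00558 to 0.115 over the alternatives.

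Of 6 KCNA genes, which encode Kv1 channels of the Shaker type, KCNA5 and KCNA7 were lower in winter. KCNA7, known from skeletal muscle and heart, was at 43.7, 47.6 and 55.8 CPM in summer and 28.5, 36.0 and 41.4 CPM in winter. The shift was small, yet the seasons did not overlap and 6 of 6 bears fell, with a log2 fold change of −0.44 ± 0.11 (SE, adjusted p = 0.00712). KCNA5, a channel known from heart and the smooth muscle of vessels, was at 3.28, 4.46 and 6.15 CPM in summer and 1.18, 2.06 and 2.35 CPM in winter. Here also the seasons lay apart in all 6 bears (log2 fold change −1.25 ± 0.21 SE, adjusted p = 0.00116). KCNA2 was below its summer level in 6 of 6 bears without passing the test (log2 fold change −1.17, adjusted p = 0.0513), and was called without bear 1305 (0.0426) or under library totals (0.0449), a range of 0.0426 to 0.117 over the alternatives. KCNA3 was not called (adjusted p = 0.127) except without bear 1509 (0.0392, and up to 0.331 over the alternatives). KCNA2 and KCNA3 were named after their values were seen, as were KCND3, KCNIP3, KCNK1 and KCNMB4 below. KCNA1 and KCNA4 held 66 and 34 reads in all, most of them in 1 library, which is described last.

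The KCND genes encode Kv4 channels, which carry fast transient current and take KCNIP proteins as calcium-sensing subunits. Neither KCND gene with enough reads was called. KCND3 was at 0.130, 0.808 and 1.10 CPM in summer and 0.0602, 0.147 and 0.938 CPM in winter, with a log2 fold change of −1.45 ± 0.54 (SE, adjusted p = 0.0528). It passed the test without bear 1317 (0.0429) or 1509 (0.0141), under library totals (0.0408) and with no filter on low counts (0.0433), a range of 0.0141 to 0.161 over the alternatives. The KCNIP partner genes lay on the other side of 0. KCNIP2 was at 2.63, 3.25 and 3.43 CPM in summer and 3.76, 5.73 and 7.67 CPM in winter, with no overlap between the seasons and 6 of 6 bears higher (log2 fold change 0.83 ± 0.19 SE, adjusted p = 0.0054). KCNIP3, with 89 reads in all, had a log2 fold change of 1.35 ± 0.50 (SE, adjusted p = 0.0534). The winter library of bear 1509 held 22 of these reads, and without that bear the log2 fold change was 1.03 (adjusted p = 0.133). KCNIP3 was called without bear 1316 (0.0236), in limma voom (0.0395) and without the block (0.0298), a range of 0.0236 to 0.171 over the alternatives. The KCNH genes, KCNH3 and KCNH4, held 44 and 34 reads and were not called.

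**Figure D2:**
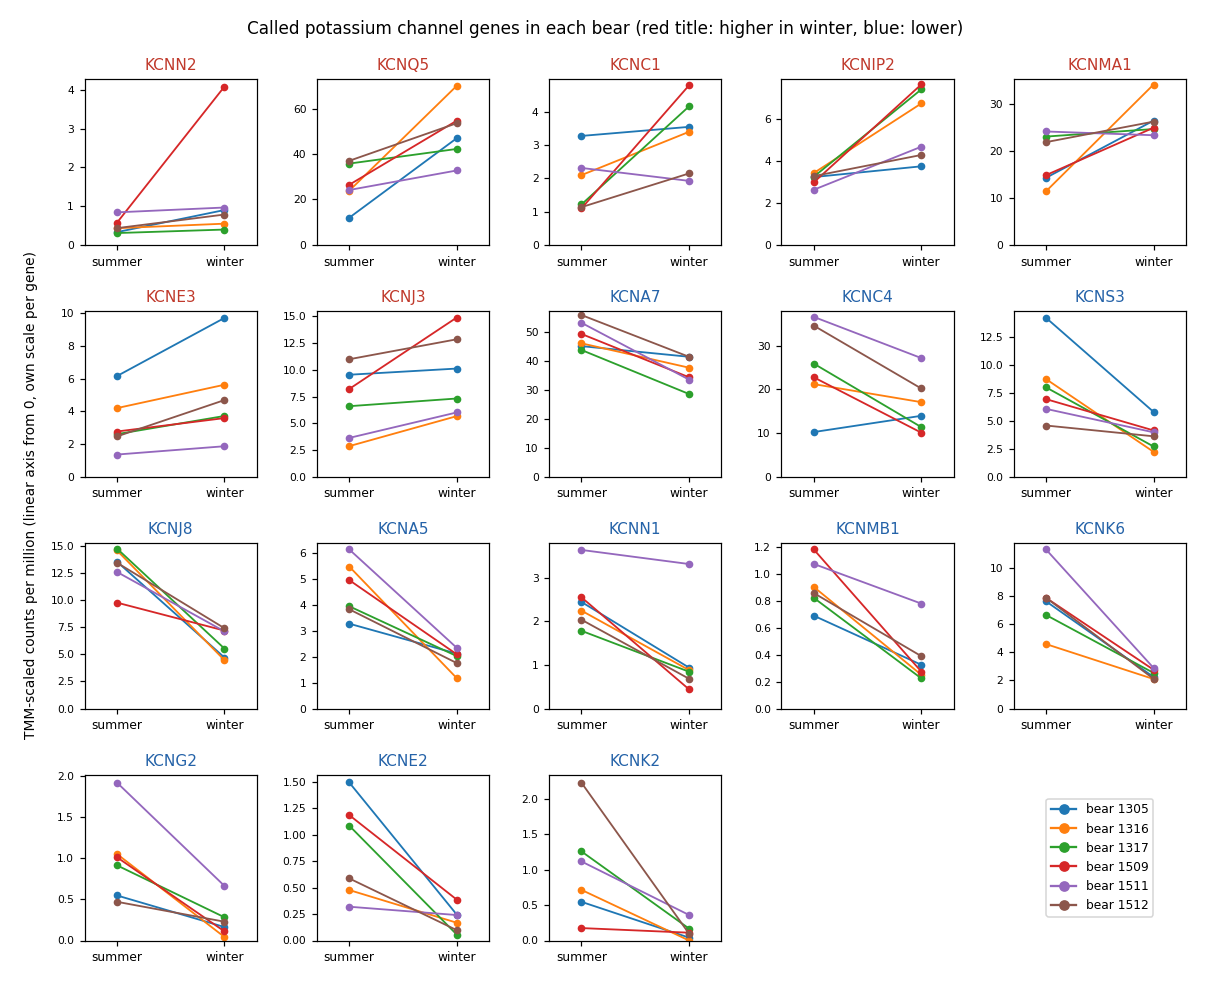
TMM-scaled CPM of 18 called potassium channel genes in summer and winter, with a line for each of the 6 bears, linear axes from 0 with a scale of their own per gene, and red titles for genes higher and blue titles for genes lower in winter. KCNK6 fell from at least 4.58 to at most 2.89 CPM and KCNIP2 rose from at most 3.43 to at least 3.76 CPM, while KCNE3 rose in each bear although the bears differed more than the seasons.

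Silent subunits, which join other voltage-gated pores and alter their gating, were represented by 4 genes, 2 of them lower in winter. KCNS3 was at 4.58, 7.46 and 14.2 CPM in summer and 2.23, 3.79 and 5.80 CPM in winter, and fell in 6 of 6 bears (log2 fold change −1.08 ± 0.22 SE, adjusted p = 0.00283). KCNG2 was at 0.470, 0.961 and 1.92 CPM in summer and 0.0420, 0.196 and 0.662 CPM in winter, and fell in 6 of 6 bears as well (log2 fold change −2.03 ± 0.42 SE, adjusted p = 0.00315). In both genes the highest winter library reached the summer range. KCNF1 and KCNV2, at a median of at most 0.295 CPM in either season, were not called.

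Inward rectifiers numbered 8, of which KCNJ3 was called higher and KCNJ8 lower. KCNJ2 and KCNJ12 encode the Kir2 channels that hold the resting potential of muscle fibres, and neither was called. KCNJ2 was at 24.1, 35.8 and 50.1 CPM in summer and 22.0, 30.9 and 53.9 CPM in winter, with 3 of 6 bears higher and a log2 fold change of −0.08 ± 0.12 (SE, adjusted p = 0.64). KCNJ12 was at 9.98, 15.5 and 15.9 CPM in summer and 5.68, 12.4 and 17.9 CPM in winter (log2 fold change −0.33 ± 0.23 SE, adjusted p = 0.279). For both the seasons overlapped.

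KCNJ11 and KCNJ8 encode the pores of ATP-sensitive channels, Kir6.2 and Kir6.1, of which the former is known as the pore of muscle fibres and the latter from vessels; both need a sulfonylurea receptor, ABCC8 or ABCC9. KCNJ8 was at 9.75, 13.5 and 14.7 CPM in summer and 4.45, 6.31 and 7.39 CPM in winter. No winter library reached the lowest summer library, and 6 of 6 bears fell (log2 fold change −1.13 ± 0.18 SE, adjusted p = 0.000728). KCNJ11 was at 12.9, 19.7 and 22.1 CPM in summer and 12.2, 26.8 and 36.2 CPM in winter. It rose in 5 bears and went from 20.2 to 12.2 CPM in bear 1509, and the log2 fold change of 0.39 ± 0.20 (SE) did not pass the test (adjusted p = 0.137). Without bear 1509 it was 0.61 and passed (adjusted p = 0.00537, and up to 0.34 over the alternatives). Of the receptors, ABCC9, which lies beside KCNJ8 in the RefSeq gene table, was at 157 to 221 CPM in summer and 120 to 220 CPM in winter (log2 fold change 0.02, adjusted p = 0.924). ABCC8, the neighbour of KCNJ11, was at 0.0399 to 0.583 CPM in summer and 0.421 to 0.845 CPM in winter, and was called higher (log2 fold change 1.74 ± 0.48 SE, adjusted p = 0.0141) with 5 of 6 bears higher. ABCC8 held 114 reads in all, with 1 to 21 per library, so the size of this fold change rests on few reads. The log2 ratio of KCNJ8 to ABCC9 was lower in winter by 0.42 to 1.95 in all 6 bears.

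KCNJ3, a subunit of channels opened by G proteins, was at 2.86, 7.41 and 11 CPM in summer and 5.67, 8.72 and 14.9 CPM in winter. Bears differed more than seasons, yet each of the 6 bears was higher in winter, by 0.08 to 0.96 on the log2 scale. The log2 fold change was 0.49 ± 0.16 (SE, adjusted p = 0.0304). It rests on the pairing, since without the block the adjusted p was 0.31, and it was lost without bear 1316, 1509 or 1511 (0.0801, 0.0654 and 0.0747) and under library totals (0.0884), a range of 0.0231 to 0.31 over the alternatives. Its partner genes KCNJ5, KCNJ6 and KCNJ9 each held fewer than 30 reads. KCNJ14, KCNJ15 and KCNJ16 had log2 fold changes between −0.58 and 0.75 and were not called.

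Tandem pore genes numbered 5, of which KCNK2 and KCNK6 were lower in winter. KCNK6 encodes TWIK-2, known from vessels and from the membranes of lysosomes. It was at 4.58, 7.74 and 11.3 CPM in summer and 2.1, 2.39 and 2.89 CPM in winter. The winter libraries lay close together and below all summer libraries. Its log2 fold change was −1.61 ± 0.16 (SE) with the lowest adjusted p of the 53 genes (6.46e-05), and it fell in 6 of 6 bears. KCNK2 encodes TREK-1, a channel opened by stretch and lipids. It was at 0.176, 0.916 and 2.23 CPM in summer and 0, 0.104 and 0.361 CPM in winter, a log2 fold change of −3.02 ± 0.56 (SE, adjusted p = 0.00179) with 6 of 6 bears lower. It held 163 reads over the 12 libraries, and bear 1509 went only from 0.176 to 0.110 CPM, so the size of this fold change rests on few reads. KCNK1 had a log2 fold change of −1.78 (adjusted p = 0.105) and was called without bear 1509 (adjusted p = 0.0106, and up to 0.337 over the alternatives). KCNK3 and KCNK7 were not called.

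Calcium-activated genes numbered 5, of which KCNMA1 and KCNN2 were called higher and KCNN1 lower. KCNMA1 encodes the pore of the BK channel, which opens on calcium and depolarisation together. It was at 11.4, 18.4 and 24.1 CPM in summer and 23.3, 25.6 and 34.1 CPM in winter. The winter libraries lay near or above the highest summer libraries, with bear 1316 well above the rest, and 5 of 6 bears rose (log2 fold change 0.58 ± 0.19 SE, adjusted p = 0.0343). The call was lost without bear 1305, 1316 or 1509 (adjusted p = 0.104, 0.0792 and 0.06) and under library totals (0.0839), a range of 0.0125 to 0.104 over the alternatives.

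The KCNN1, KCNN2 and KCNN3 genes encode the small-conductance SK channels, which follow calcium bound to calmodulin, and KCNN4 the intermediate one. KCNN3, the SK gene known to come up in denervated muscle fibres, was at 18.6, 35.8 and 47.1 CPM in summer and 30.3, 36.2 and 51.6 CPM in winter. Its seasons overlapped (log2 fold change 0.16 ± 0.16 SE, adjusted p = 0.451). KCNN1 was at 1.78, 2.34 and 3.63 CPM in summer and 0.441, 0.863 and 3.31 CPM in winter. In 5 winter libraries it was at most 0.939 CPM, below all of summer, and only that of bear 1511 lay within the summer range. The log2 fold change was −1.27 ± 0.28 (SE, adjusted p = 0.00499), with 6 of 6 bears lower. KCNN2 was at 0.304, 0.430 and 0.838 CPM in summer and 0.394, 0.840 and 4.08 CPM in winter, a log2 fold change of 1.07 ± 0.39 (SE, adjusted p = 0.0479) with 6 of 6 bears higher. The highest value is the winter library of bear 1509. Without that bear the log2 fold change was 0.66 (adjusted p = 0.117), and the call was also lost without bear 1305, 1316, 1317 or 1512 (0.121, 0.0521, 0.0563 and 0.0834), without the block (0.0514), under library totals (0.0656) and in DESeq2 with the block (0.0623), a range of 0.0279 to 0.121 over the alternatives. KCNN4 was not called, nor were the sodium-activated genes KCNT1, at a median of 6.94 CPM in summer and 6.43 CPM in winter, and KCNT2.

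Accessory genes numbered 12, of which KCNIP2 and KCNE3 were called higher and KCNE2 and KCNMB1 lower. The KCNE genes encode small membrane proteins that set the gating of voltage-gated pores. KCNE3 was at 1.36, 2.69 and 6.16 CPM in summer and 1.87, 4.20 and 9.71 CPM in winter. The bears differed more than the seasons, and each bear was higher in winter, from 6.16 to 9.71 CPM in bear 1305 and from 1.36 to 1.87 CPM in bear 1511, for example. The log2 fold change was 0.56 ± 0.15 (SE, adjusted p = 0.0136), and single bears rose by 0.36 to 0.90. Without the block it was not called (adjusted p = 0.239), nor without bear 1305 (0.0571), a range of 0.0101 to 0.239 over the alternatives. KCNE2 was at 0.319, 0.836 and 1.49 CPM in summer and 0.0563, 0.204 and 0.386 CPM in winter, lower in all 6 bears (log2 fold change −2.06 ± 0.43 SE, adjusted p = 0.00344, 151 reads in all). KCNE4 was not called.

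The KCNMB genes encode beta subunits of the BK channel. KCNMB1, the subunit of smooth muscle, was at 0.692, 0.884 and 1.19 CPM in summer and 0.225, 0.301 and 0.782 CPM in winter. Only the winter library of bear 1511 reached the summer range, and 6 of 6 bears fell (log2 fold change −1.35 ± 0.32 SE, adjusted p = 0.00635). The log2 ratio of the pore gene KCNMA1 to KCNMB1 was higher in winter by 0.37 to 3.13 in the 6 bears, and that of KCNE3 to KCNE2 by 0.75 to 3.53. Pairs of genes were formed after the values were seen, so that ratios are a description. KCNMB2, KCNMB3 and KCNMB4 had log2 fold changes of −0.34, −0.54 and −0.45 and were not called, although KCNMB3 and KCNMB4 were below their summer level in 6 of 6 bears (adjusted p = 0.113 and 0.0627). KCNMB4 passed under library totals (0.0429), a range of 0.0429 to 0.146 over the alternatives. The KCNAB genes, beta subunits of Kv1 channels, were not called.

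**Figure D3:**
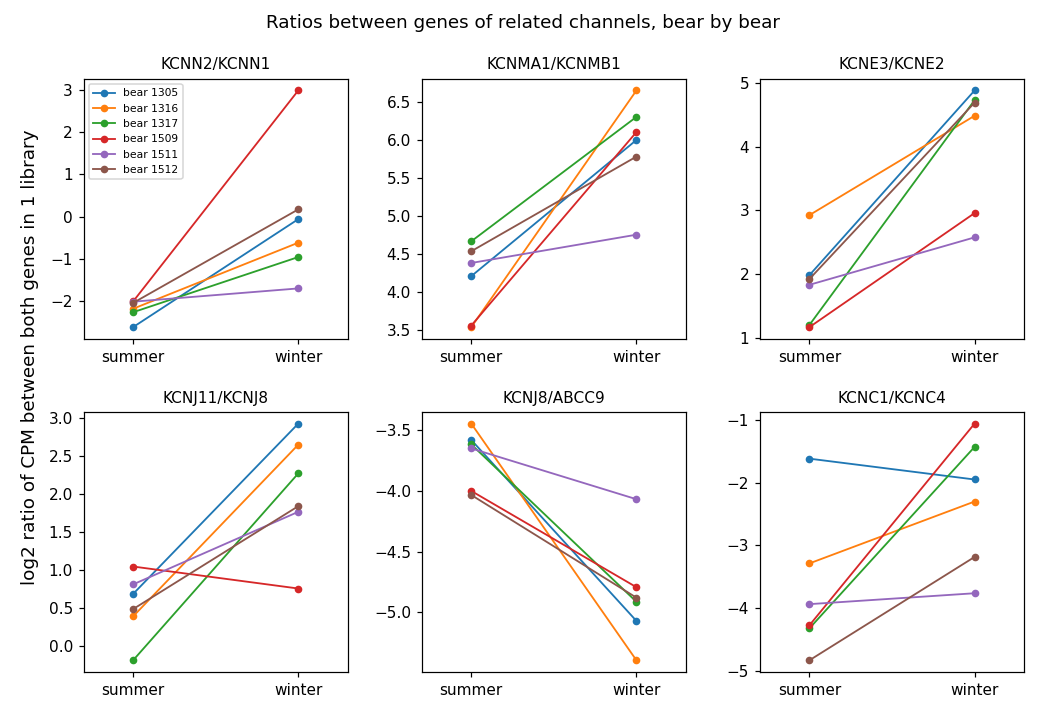
Log2 ratio of the CPM of both named genes within each library, in summer and winter, with a line for each of the 6 bears; axes differ between pairs. The ratios of KCNN2 to KCNN1, KCNMA1 to KCNMB1 and KCNE3 to KCNE2 were higher in winter in 6 of 6 bears, that of KCNJ8 to ABCC9 was lower in 6 of 6, and those of KCNJ11 to KCNJ8 and KCNC1 to KCNC4 were higher in 5 of 6.

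**Figure D4:**
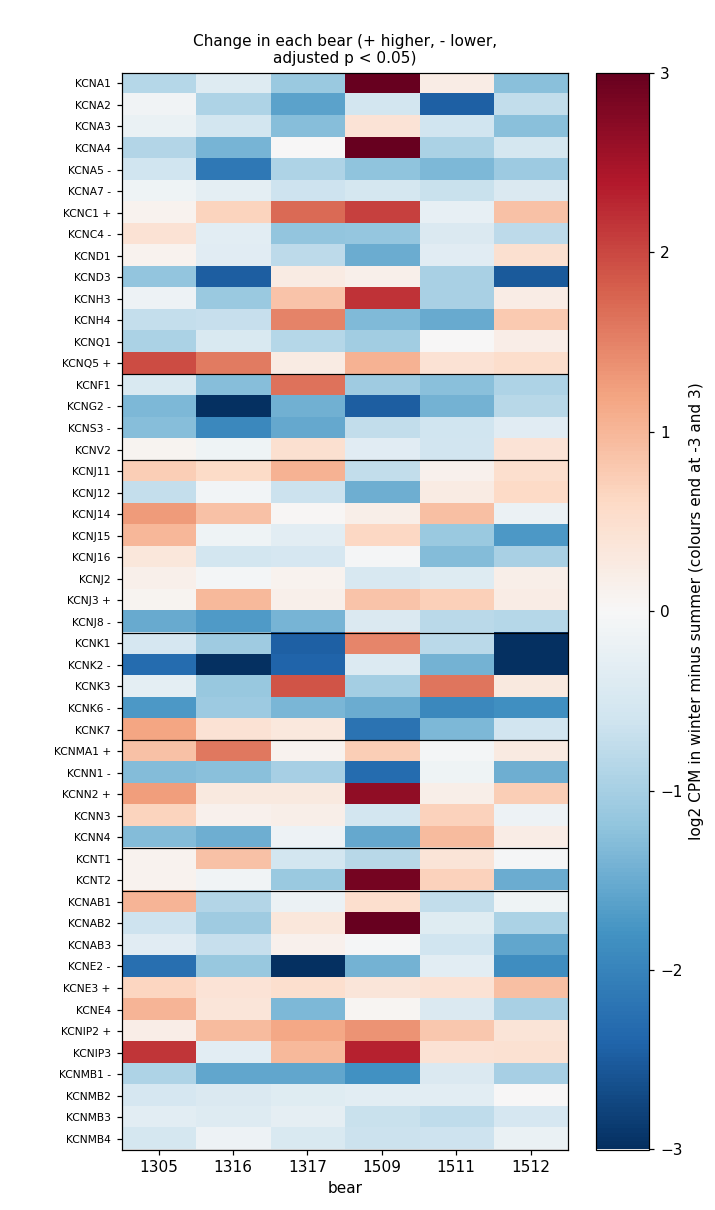
Log2 CPM in winter minus summer of 50 potassium channel genes in each of the 6 bears, red where winter was higher and blue where it was lower, with colours ending at −3 and 3; a plus or minus sign after the symbol marks genes called higher or lower. KCNE3, KCNIP2 and KCNQ5 are red and KCNA5, KCNJ8, KCNK6 and KCNMB1 are blue in every bear, and the column of bear 1509 holds dark red cells at KCNA1, KCNA4, KCNAB2, KCNN2 and KCNT2.

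Companion genes, a list of 34 genes whose products bind potassium channels or carry potassium by other routes, gave 29 genes with enough reads, of which 3 were higher and 6 lower in winter. That is 31.0% called, against 40.8% of all genes. The median log2 fold change of the 29 was −0.17. HCN2, a channel that passes potassium and sodium on hyperpolarisation, was at 0.274 to 1.06 CPM in summer and 1.18 to 2.31 CPM in winter, with no overlap and 6 of 6 bears higher (log2 fold change 1.93, adjusted p = 0.00174). CAV3, the caveolin of muscle fibres, was at 158 to 267 CPM in summer and 229 to 452 CPM in winter and rose in all 6 bears (log2 fold change 0.79, adjusted p = 0.00414). ABCC8, above, was the third higher gene. TMEM175, the lysosomal potassium channel, was lower without overlap between the seasons, at 6.81 to 9.68 CPM in summer and 2.90 to 4.08 CPM in winter (log2 fold change −1.21, adjusted p = 0.000132). So was ABCB8, a subunit of the mitochondrial ATP-sensitive channel, at 3.64 to 6.47 CPM and 1.3 to 2.59 CPM (log2 fold change −1.43, adjusted p = 0.000217). CCDC51, the pore of that mitochondrial channel, was not called (log2 fold change −0.28, adjusted p = 0.162).

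The other lower companions moved less. TMEM38A, the TRIC-A channel that carries counter-current across the sarcoplasmic reticulum, had a log2 fold change of −0.51 (adjusted p = 0.00561) with 6 of 6 bears lower and seasons that overlapped, and its relative TMEM38B was not called (−0.33, adjusted p = 0.0564). LETM1, the potassium-proton exchanger of mitochondria, was at −0.51 (adjusted p = 0.0322), the cotransporter SLC12A4 at −0.38 (0.0193) and the membrane anchor ANK3 at −0.41 (0.0405). These 3 calls are sensitive to single bears. Without bear 1511 the adjusted p was 0.0571 for LETM1, 0.0506 for SLC12A4 and 0.0867 for ANK3. LETM1 was also lost without bear 1305, 1317 or 1509 (0.0776, 0.0937 and 0.0787, within 0.00641 to 0.0937 over the alternatives). ANK3 was also lost without bear 1305, 1316, 1317 or 1512 (0.061, 0.0902, 0.112 and 0.0909) and without the block (0.055), a range of 0.00706 to 0.112, and for SLC12A4 the range was 0.0124 to 0.0506. Of the 4 Kv auxiliary genes, AMIGO1 among them (log2 fold change −0.17, adjusted p = 0.193), the BK gamma subunit LRRC38 and the 3 calmodulin genes, none was called by edgeR or under an alternative, DESeq2 and limma voom included, and 0 had an unadjusted p below 0.05.

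Markers of vessel cells differed between the seasons. Endothelial markers were lower in 5 of 6 genes, with a summed level of 606 to 941 CPM in summer and 396 to 472 CPM in winter. Pericyte markers were lower in 4 of 5 genes (415 to 547 and 224 to 308 CPM) with a median log2 fold change of −0.66, and smooth muscle markers in 3 of 5 (105 to 184 and 75.1 to 144 CPM) with a median of −0.50. Without bear 1316 or 1511, 1 of 5 smooth muscle markers was lower, and without bear 1305, 1509 or 1512, 2 of 5. In edgeR, 2 of 5 were lower with RLE scaling or without the block, and 4 of 5 under library totals. Of the pericyte markers, 3 of 5 were lower without bear 1316, 1317, 1509 or 1512. None of these endothelial, pericyte and smooth muscle markers was at 0 in a library. Of the called members, those named here as known from vessels went both ways. Members that were not called are left out of this comparison. Log2 fold changes were −1.13, −1.25, −1.35 and −1.61 in KCNJ8, KCNA5, KCNMB1 and KCNK6, the last known from lysosomes too. They were 0.58 and 0.96 in KCNMA1 and KCNQ5, which vascular smooth muscle also expresses. These genes form no list of their own, and the part of the vessel cells in their values was not tested. ABCC9, the receptor that pairs with KCNJ8 in vessels and is also expressed by muscle fibres, had a log2 fold change of 0.02 and was not called, as given above.

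Other cell types also differed. Fibroblast markers were lower in 4 of 5 genes, with a summed level of 2125 to 6388 CPM in summer and 107 to 672 CPM in winter, and immune markers in 3 of 5 (30.9 to 61.8 and 18.9 to 40.4 CPM). Without bear 1317, 1509, 1511 or 1512, 2 of 5 immune markers were lower. Adipocyte markers were lower in 1 of 4 genes. Among skeletal muscle fibre markers, 2 of 6 were lower (ACTA1 and MB), and 1 without bear 1509. Of 9 genes that rise in denervated fibres, CHRNG, MUSK and GADD45A were higher and the other 6 were not called, among them CHRNA1, NCAM1 and MYOG with log2 fold changes of −0.34, −0.41 and −0.21. Without bear 1305, 4 were higher, and without bear 1317, 3 were higher and 1 lower. The summed level had a median of 71.3 CPM in summer (55.0 to 102) and 92.3 CPM in winter (79.9 to 129), while that of GADD45A alone was 18.2 and 41.8 CPM. KCNN3, which also belongs to the genes known from denervated fibres, was not called, as given above. The part of these cell types in the potassium channel genes was not tested.

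The winter library of bear 1509 held the highest level of the 12 libraries in 11 of the 53 potassium channel genes, 20.8%, and in 10.03% of all genes. KCNA1 had 35 of its 66 reads there, at 1.93 CPM, while the other libraries reached at most 0.347 CPM. KCNA4 had 26 of its 34 reads there, at 1.43 CPM, with no read in the other 5 winter libraries. It is among the 11 genes but met the minimum of reads only through this library. The same minimum applied to all genes, and how many of them passed it in this way was not tested. KCNAB2, a beta subunit that joins Kv1 pores, was at 9.71 CPM there and at most 1.24 CPM elsewhere. These Kv1 pore and beta subunit genes, with KCNN2 at 4.08 CPM, are best known from nerve cells. KCNA2, a Kv1 gene also known from nerve, was at 0.331 CPM there and at up to 0.822 CPM elsewhere. KCNIP2, KCNJ3 and KCNC1, which were called higher in winter, were also highest in this library. They were at 7.67, 14.9 and 4.80 CPM there and at most 7.43, 12.9 and 4.17 CPM elsewhere. KCNAB1, KCNH3, KCNIP3 and KCNT2 were the rest of the 11 genes. Of the 29 companion genes, 8 (27.6%) were at their highest in this library. The 3 with the highest ratio to the next library were named after their values were seen. DPP6, a Kv4 auxiliary protein, was at 2.65 CPM there and at most 0.470 CPM elsewhere, the potassium-chloride cotransporter SLC12A5 at 7.67 CPM and at most 0.0783 CPM, and the scaffold gene DLG4 at 15.1 CPM and at most 2.43 CPM. SLC12A5 had 139 of its 145 reads there, and DPP10, another Kv auxiliary gene, 14 of its 35. Both are among the 8 and met the minimum of reads only through this library. KCNJ11, at 12.2 CPM, and KCNJ12, at 5.68 CPM, were at the lowest level of all 12 libraries there. The part of nerve RNA in these values was not tested. Without bear 1509, 5 potassium channel genes passed upward and 13 downward, beside 43.1% of all genes (21.1% and 21.9%), where KCNJ11, KCNA3, KCND3 and KCNK1 were gained and KCNC1, KCNC4, KCNJ3, KCNMA1 and KCNN2 were lost.

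**Figure D5:**
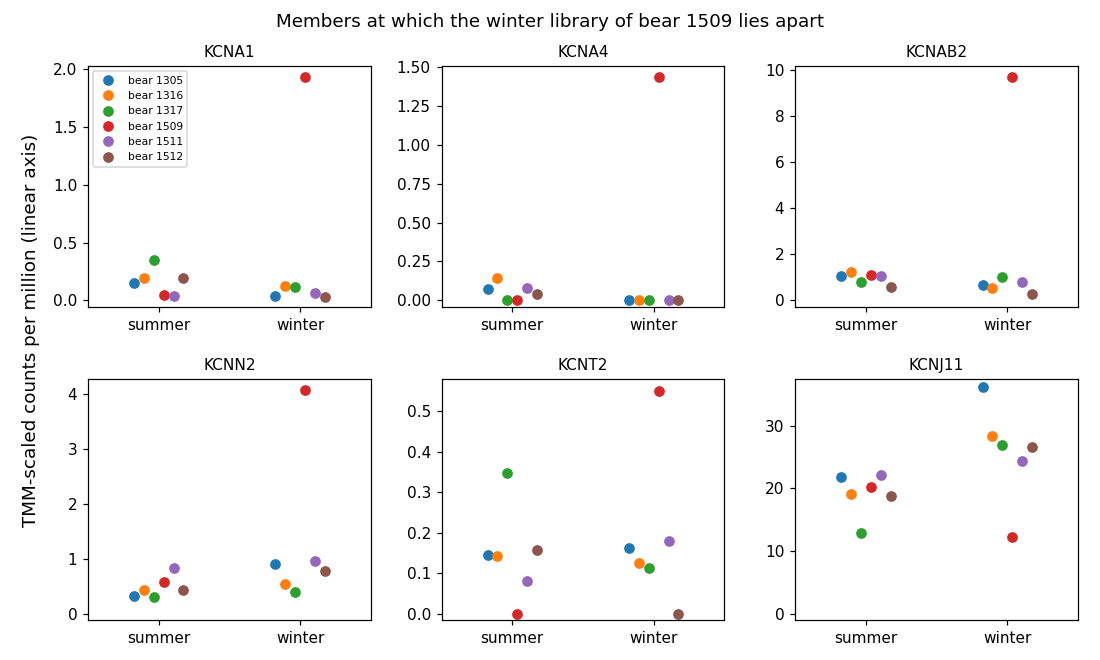
TMM-scaled CPM of 6 potassium channel genes in the 6 summer and the 6 winter libraries, with a colour for each bear on linear axes. The winter library of bear 1509 (red) lies above all others for KCNA1, KCNA4, KCNAB2, KCNN2 and KCNT2, at 1.93 CPM for KCNA1 against at most 0.347, and lowest of all for KCNJ11 at 12.2 CPM. KCNT2 lies at 0.552 CPM there against at most 0.347, which rests on 10 of its 43 reads against at most 8 in another library.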

How the data were processed

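Libraries of 6 bears in 2 seasons were used. For each, the authors made a stranded mRNA library and read it single-end for 50 bases. They mapped the reads with TopHat2 2.1.1 to the brown bear assembly ASM358476v1, discarded alignments with more than 3 mismatches, and counted reads per gene on the opposite strand with featureCounts 1.6.2. The deposited values are these raw counts. Strand-specific counting keeps antisense genes apart, while the paper does not state how reads that paralogs share were counted. The labels do not assign libraries to sequencing lanes, so a lane effect was not tested.

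Counts were analysed in R 4.3.3 with edgeR 4.0.16 (TMM, glmQLFit and glmQLFTest) over genes with at least 30 reads, with season and bear as terms, since each animal was biopsied in both seasons. After the mean of each season was removed, values correlated at 0.0903 to 0.344 between libraries of a bear and at most at 0.142 between bears. Log2 CPM used a prior count of 2. On simulated data for this comparison, with 17066 genes and 200 changed, this fit recovered 62% of 2-fold and 82% of 4-fold changes with 10 other calls. The simulated bears did not differ in level, and far fewer genes changed than were called here. The simulation therefore did not test the block, and recovery in the real data may differ. Alternatives were no block, DESeq2 1.42.0 with and without the block, limma 3.58.1 voom, RLE, library totals, no filter, filterByExpr, each bear left out, and adjusted p below 0.01 with a fold above 1.3 or below 0.77. All called members and the 10 with the highest mean CPM were named, except that some members, and the list of Schwann cell and nerve markers, are not reported here. Counts cover all 53 members, and figures draw 50 of them. Gene symbols were those of the count table, and neighbouring genes were read from RefSeq's table for assembly UrsArc2.0, where 53 of 53 symbols matched. The members and lists were chosen with earlier results of these data known. Counting precision follows the depth. With the bear as a block, p-values weigh the seasonal change against its spread from bear to bear, not against differences in level between bears.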

Additional observations from a re-analysis of the deposited data

Results flagged for a closer look

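Each of the 24 named potassium channel genes was screened in each season for a library whose gap to its nearest neighbour, divided by the range of the 6 libraries, was above Dixon's 95% critical value. Of 48 groups, 6 held such a library, and chance alone gives about 1 in 20. Values are log2 CPM. In winter, KCNMA1 was highest in bear 1316 at 5.10, KCNN1 highest in bear 1511 at 1.76, KCNN2 highest in bear 1509 at 2.06, and KCNJ11 lowest in bear 1509 at 3.62. In summer, KCNJ11 was lowest in bear 1317 at 3.70 and KCNJ12 lowest in bear 1512 at 3.33. In CPM, these libraries lay at 34.1 against at most 26.4 for KCNMA1, 3.31 against at most 0.939 for KCNN1, 4.08 against at most 0.963 for KCNN2, 12.2 against at least 24.4 for KCNJ11 in winter, 12.9 against at least 18.9 for KCNJ11 in summer, and 9.98 against at least 14.6 for KCNJ12.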

How the results depend on the processing

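Over 14 alternatives, 13 of the 19 called potassium channel genes were called in each alternative that tested them; filterByExpr kept 35 of the 53 genes and did not test KCNE2 and KCNK2. Of 460 values of single genes under the alternatives, 413 kept their direction and side of the threshold, 44 lost and 2 gained the call, and 1 reversed: KCNJ2 without bear 1509, at a log2 fold change of 0.015 (adjusted p = 0.927), within −0.13 to 0.015 with a bear left out. The number of potassium channel genes called higher, 8 with TMM, was 4 with library totals, which moved the median of all genes by −0.08 on the log2 scale, and 3 at an adjusted p below 0.01 with limits on the fold, a stricter rule by construction that left 10 lower. It ran from 5 to 7 with a bear left out, 5 without bear 1305, 1316 or 1509, and the number lower from 10 to 13. Lower companion genes, 6 in all, numbered 3 under the stricter rule and 3 to 6 with a bear left out, 3 without bear 1511. Without the replicate block, 6 potassium channel genes passed upward and 10 downward: KCNE3, KCNJ3, KCNC4 and KCNN2 were lost and KCNIP3 was gained. The cause of the other shifts was not tested. Depth limits genes such as KCNK2, KCNE2 and KCNG2, which held under 180 reads in all, and the 38 genes under 30 reads.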
